A study of Mus musculus with 6 samples.

Results

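The genes described here are 45 components and regulators of the cell division cycle, measured by RNA-seq in the gastrocnemius, a calf muscle, of mice with and without functional dysferlin. They were chosen by gene symbol, and all 45 were found among the 57010 genes of the deposited count table. The control group was 3 male C57BL/6 mice labelled wild type. The mutant group was 3 BLAJ mice, strain B6.A-Dysfprmd/GeneJ, homozygous for Dysfprmd; replicates 1 and 2 were female and replicate 3 was male. All 6 animals were adults aged 3 months with no treatment, and each gave 1 directional poly(A) library from frozen whole muscle. Dysfprmd is a mobile element insertion in an intron of Dysf, which encodes a protein that muscle fibres need to reseal their membrane. The controls are a separate strain in the labels, so Dysf genotype and strain background cannot be told apart, and sex is uneven between the groups. The design asks how gene expression in dysferlin-deficient muscle differs from that in control muscle.

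In a dividing cell, D-type and E-type cyclins with their kinases free the E2F transcription factors from the RB proteins, and E2F then turns on the genes for DNA replication. Later, complexes that contain FOXM1 or B-MYB turn on the genes for mitosis, many of them through a promoter element called the CHR that lies near a CCAAT box. Muscle fibres no longer divide, so cell division in adult muscle takes place in satellite cells and their myoblast progeny, in blood vessel cells, in fibroblasts and in immune cells. A whole-muscle library mixes all of these cells, so a change in the number of dividing cells and a change in RNA per cell cannot be told apart.

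Many mitotic promoters carry the letters through which they are known to be switched on together. Promoters of 4 mitotic genes are shown as examples that hold a CHR, and that of 1 replication gene is shown beside them. The sequences are from RefSeq on mouse build GRCm38.p6, while the deposited counts were made on GRCm39, so no position is carried between builds. Each run is the 200 bases before the annotated start, on the strand of the gene. Capitals mark matches to the CHR (TTTGAA), the CCAAT box (CCAAT) or an E2F site (TTTCCCGC, TTTCGCGC, TTTGCCGC or TTTGGCGC), read on either strand. The run of Mki67, the standard label of cycling cells, is chr7:135716380-135716579 on the minus strand. That of Cdk1, the kinase that starts mitosis, is chr10:69352913-69353112 on the minus strand, and that of Top2a, which untangles replicated DNA, is chr11:99024190-99024389 on the minus strand. For Kif11, a motor that pushes the spindle poles apart, it is chr19:37376182-37376381 on the plus strand. For Mcm6, a subunit of the replicative helicase, it is chr1:128359706-128359905 on the minus strand.
Mki67: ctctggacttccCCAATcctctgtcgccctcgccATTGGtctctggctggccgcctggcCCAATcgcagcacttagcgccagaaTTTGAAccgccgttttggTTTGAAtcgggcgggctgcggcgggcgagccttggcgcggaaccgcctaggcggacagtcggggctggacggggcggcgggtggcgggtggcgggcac
Cdk1: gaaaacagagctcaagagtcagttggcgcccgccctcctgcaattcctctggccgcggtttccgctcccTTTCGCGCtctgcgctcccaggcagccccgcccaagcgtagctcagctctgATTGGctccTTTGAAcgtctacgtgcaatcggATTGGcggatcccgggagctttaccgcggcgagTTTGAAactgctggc
Top2a: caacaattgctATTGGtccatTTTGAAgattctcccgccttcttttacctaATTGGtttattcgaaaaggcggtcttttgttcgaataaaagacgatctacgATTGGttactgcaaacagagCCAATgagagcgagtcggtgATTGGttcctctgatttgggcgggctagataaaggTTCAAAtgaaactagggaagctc
Kif11: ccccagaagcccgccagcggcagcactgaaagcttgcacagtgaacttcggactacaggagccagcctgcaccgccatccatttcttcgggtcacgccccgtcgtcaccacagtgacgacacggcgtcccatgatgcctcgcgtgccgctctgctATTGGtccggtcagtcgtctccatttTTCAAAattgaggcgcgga
Mcm6: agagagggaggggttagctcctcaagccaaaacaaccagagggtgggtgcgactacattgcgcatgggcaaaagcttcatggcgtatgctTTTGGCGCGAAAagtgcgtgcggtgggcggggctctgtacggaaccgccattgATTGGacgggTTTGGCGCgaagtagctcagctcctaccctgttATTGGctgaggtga
The 4 mitotic promoters each hold at least 1 CHR and at least 1 CCAAT box, and the Cdk1 promoter also holds 1 E2F match. The Mcm6 promoter holds no CHR in this window, 2 CCAAT boxes and 3 E2F matches, of which 2 overlap on opposite strands.

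Promoters were found for 36 of the 45 genes, and they were read over 300 bases, from 250 before to 50 after each start. The 9 genes with no entry were Ccnd2, Foxm1, Mcm4, Ccnd1, Ccna2, Ccne2, Kif20a, Aurkb and Tpx2. A CHR was present in 17 of 21 promoters of mitotic genes (81.0%), in 1 of 13 promoters of replication genes (7.69%) and in 17.9% of all 32851 promoters in the table. A CCAAT box was present in 20 of the 21 mitotic promoters (95.2%), 9 of the 13 replication promoters (69.2%) and 37.4% of all promoters. An E2F match was present in 1 of 21 mitotic promoters (4.76%), 6 of 13 replication promoters (46.2%) and 2.26% of all promoters. Among the mitotic promoters without a CHR in this window were those of Ccnb1, Bub1 and Cenpe. The promoter of Aurka held a CHR, though Aurka did not follow the pattern of most mitotic genes described below. A match describes these letters only, and some genes contribute more than 1 promoter. A link between these letters and the levels below was not tested.

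Between 35042245 and 43733641 read pairs were assigned to genes per library. Levels are given as CPM, the read pairs of a gene per 1000000 read pairs assigned to genes, on library sizes scaled by edgeR's trimmed mean of M values. A count of 3 read pairs, below which a level has little precision, was worth 0.068 to 0.0827 CPM. Values of a group are given in the order of replicates 1, 2 and 3. Dysf stood at 72.3, 99.8 and 145 CPM in controls 1, 2 and 3, against 15.8, 14.7 and 20.3 CPM in mutants 1, 2 and 3. The mutated gene thus went with the labels (log2 fold change -2.64 ± 0.28 (SE), edgeR adjusted p = 0.0249). Transcripts of 7 muscle fibre markers summed to 125000 to 177000 CPM, so markers of the labelled tissue were abundant in every library. The 2 libraries that stood apart in the cell cycle genes were mutant replicate 3, in most mitotic genes, and control replicate 2, in Cdkn1a and p53 target genes. List medians are given with and without mutant replicate 3, as are the fold changes of many single genes.

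No cell cycle gene passed the test between mutant and control muscle. The test was edgeR's quasi-likelihood F-test with Benjamini-Hochberg adjustment over all 15589 genes that passed a filter on low counts, and an adjusted p under 0.05 made a call. Of the 45 genes, 40 passed that filter and 0 were called, where 31 of all genes tested (0.199%) were called. The lowest adjusted p among them was 0.573. DESeq2 and limma-voom also called 0 of the 40, but DESeq2 gave no p-value for Cdkn1a and so could not call it. At an unadjusted p under 0.05 edgeR gave 3 of the 40, DESeq2 4 and limma-voom 1, where DESeq2 gave 7.49% and limma-voom 6.5% of all genes. In edgeR these were 2 higher in the mutants, Bub1b and Cenpe, where 3.25% of all genes were, and 1 lower, Cdkn1a, where 3.69% of all genes were. In the authors' deposited table, 44 of the 45 genes had an adjusted p and 0 were past 0.05.

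More of the genes had positive than negative fold changes, and 1 library held the highest level of most of them. A positive fold change was fitted for 35 of the 40 tested genes, where 49.8% of all tested genes had one. The median log2 fold change over the 40 was 0.32, beside 0 for all tested genes. Mutant replicate 3 held the highest level of the 6 libraries for 28 of the 40 tested genes, where it did so for 19.1% of all tested genes, and for 33 of all 45. Among 23 mitotic genes it was the highest library for 21. The other libraries held the highest level of between 1 and 4 of the 45 genes each. With mutant replicate 3 left out, 24 of the 40 genes had a positive fold change and their median was 0.07. In that fit 1 gene (Prc1, lower) had an unadjusted p under 0.05, where 7.53% of all genes had one. The deposited counts of Prc1 carry a reservation on strand, given below. With control replicate 2 left out, 42 genes were tested, the median was 0.34 and 0 had such a p (8.15% of all genes). Leaving out control replicate 3 raised the median to 0.72, with 9 of 42 genes at such a p (6.58% of all genes). Leaving out mutant replicate 2 raised it to 0.68, with 9 of 42 (5.29%), and leaving out mutant replicate 1 raised it to 0.58, with 2 of 40 (3.75%). Without control replicate 1 it was 0.45, with 2 of 42 (9.53%). Every mutant library lay above every control for 4 of the 40 (Bub1b, Cenpe, Mcm4 and Mcm7), where 5.97% of all tested genes did so, and every mutant lay below every control for 0 of the 40 (6.09% of all tested genes). Cenpe had 7, 7 and 9 read pairs in the controls and 13, 10 and 60 in the mutants. The filter minimum was 10, so Cenpe was tested only through the mutants, where it is high. Its place in this count and at an unadjusted p under 0.05 partly follows from that filter. For Bub1b, control 3 alone of the controls reached the minimum (22 read pairs, beside 4 and 8).

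**Figure D1:**
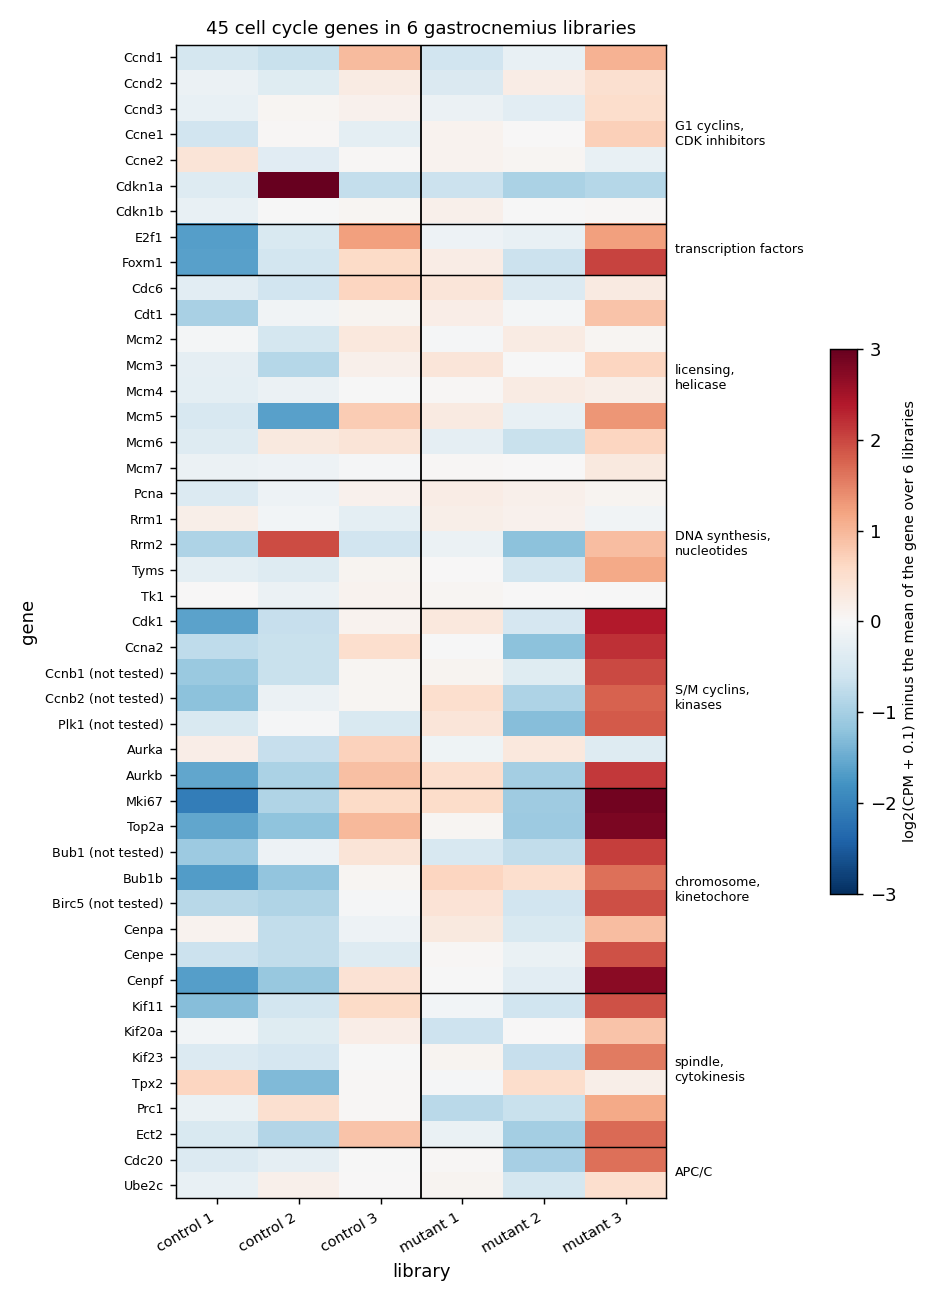
Level of each of the 45 genes (rows, in blocks by role) in the 6 libraries (columns), as log2(CPM + 0.1) minus the mean of that gene over the libraries; values beyond 3 in size are drawn at 3, and genes left out by the filter on low counts are marked as not tested. The red column at mutant 3 runs through the blocks from S/M cyclins to APC/C, and the darkest single cell of the G1 block is Cdkn1a in control 2.

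The G1 genes set the decision to enter the cycle: D-type and E-type cyclins drive it, and Cdkn1a (p21) and Cdkn1b (p27) are inhibitors of the cyclin-dependent kinases. Of the 7, 5 had a positive fold change and 2 a negative one, the median log2 fold change was 0.11 (0.01 without mutant replicate 3) and none was called. Ccne1, which pairs with CDK2 at the start of S phase, had 0.275, 0.476 and 0.356 CPM in control muscle and 0.502, 0.469 and 0.814 CPM in mutant muscle. The second mutant lay just under the highest control, so the groups overlapped (log2 fold change 0.68 ± 0.39 (SE), adjusted p = 0.812; 0.39 without mutant replicate 3). Cdkn1b was measured at 40.9, 47.2 and 49.9 CPM in controls, against 52.6, 47.1 and 49.0 CPM in mutants. The groups overlapped, with a log2 fold change of 0.11 ± 0.13 (SE). The 3 D-type cyclins were all highest in mutant replicate 3, with control replicate 3 next. Ccnd1 showed this most, at 15.6 and 14.5 CPM in those 2 libraries and 4.71 to 6.42 CPM in the other 4. Ccne2 lay between 4.85 and 8.04 CPM in every library.

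Cdkn1a gave the widest fold change of the 40, and it rested on 1 control animal. Its level was 21.2, 326 and 16.8 CPM in controls 1, 2 and 3 and 17.6, 14.3 and 15.2 CPM in mutants 1, 2 and 3. Control replicate 2 was 15.4 times the next library, and the other 5 libraries lay close together. The log2 fold change was -2.95 ± 1.17 (SE) with an unadjusted edgeR p of 0.0429 and an adjusted p of 0.701. Without control replicate 2 it was -0.28 ± 0.17 (SE), unadjusted p = 0.152. In the authors' deposited table the gene has a fold change and no p-value. That control library was also the highest of the 6 for 9 of 13 genes on a list of p53, the best known activator of Cdkn1a, and its targets, where it was the highest for 19.8% of all tested genes. Among them, Phlda3 (205 CPM) and Trp53inp1 (18.3 CPM) were nearly level with the next library, at 205 and 18 CPM. Ccng1, Sesn2, Zmat3 and Aen were highest in other libraries. Ccng1 was lowest in control replicate 2, at 1220 CPM beside 1320 to 1530 CPM elsewhere. Eda2r, a p53-induced receptor, read 15.1, 216 and 58.3 CPM in the controls, against 19.4, 29.3 and 16.6 CPM in the mutants. Gadd45a, a stress-induced growth arrest gene, stood at 173 CPM in control replicate 2 and at 9.76 to 34.0 CPM elsewhere. Rb1, the retinoblastoma gene, stood at 169 CPM there and at 19.4 to 28.1 CPM elsewhere. In the same library Myog, which switches on muscle differentiation, was at 53.4 CPM (7.64 to 14.0 CPM elsewhere), and the 9 satellite cell and myoblast markers summed to 175 CPM (56.7 to 86.3 CPM elsewhere). Their part in the Cdkn1a level was not tested.

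**Figure D2:**
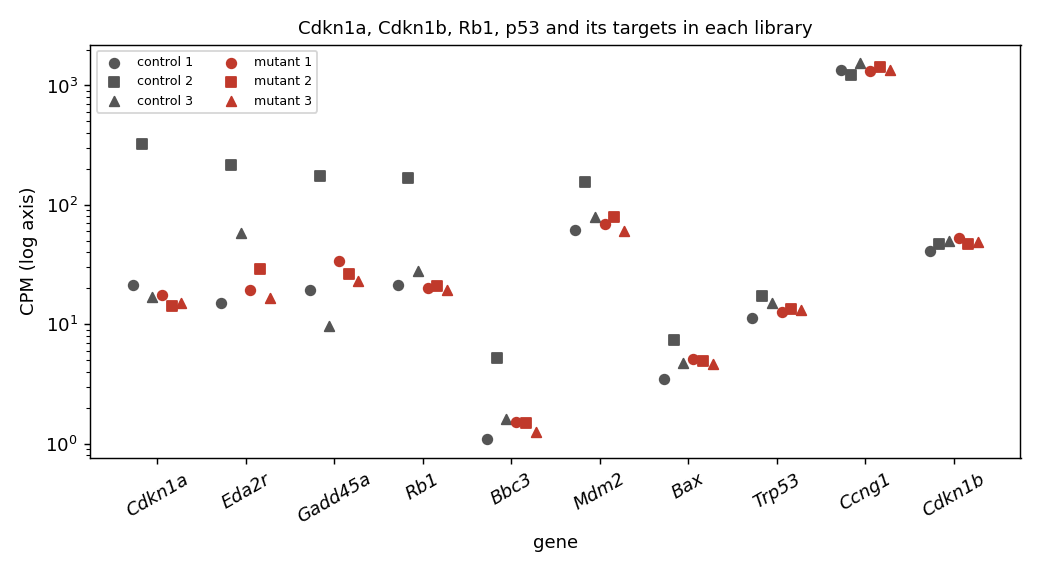
Level of Cdkn1a, Cdkn1b, Rb1, p53 (Trp53) and 6 p53 targets in each library, in CPM on a log axis; grey marks are controls, red marks mutants, and the mark's shape gives the replicate. The grey square of control 2 stands above all other marks for Cdkn1a (326 CPM), Eda2r (216 CPM), Gadd45a (173 CPM) and Rb1 (169 CPM), while Ccng1 and Cdkn1b lie close together in all 6.

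The transcription factors E2f1, which turns on replication genes, and Foxm1, which turns on mitotic genes, were both highest in mutant replicate 3. For E2f1 the levels were 0.225, 0.634 and 2.29 CPM in the controls and 0.819, 0.772 and 2.29 CPM in the mutants. Control 3 and mutant 3 were level and stood above the other 4. Its log2 fold change was 0.31 ± 0.83 (SE, adjusted p = 0.969), and it was -0.39 without mutant replicate 3. For Foxm1 the levels were 0.0749, 0.272 and 0.712 CPM in the controls and 0.529, 0.248 and 2.11 CPM in the mutants. Mutant replicate 3 was 2.97 times the next library, control replicate 3 (log2 fold change 1.45 ± 0.96 (SE), adjusted p = 0.834; 0.15 without mutant replicate 3).

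Replication genes were detected in every animal. Summed over 13 of them, the level was 98.5, 97.4 and 102 CPM in the controls and 111, 107 and 117 CPM in the mutants. On this sum the groups did not overlap. Rrm1 alone gave 33.9 to 47.6 CPM of this sum. Of the 13, 6 were highest in mutant replicate 3, and their median log2 fold change was 0.25 (0.16 without that library). The 8 licensing and helicase genes load and form the MCM ring that opens DNA. Their levels summed to 32.4, 31.4 and 44.2 CPM in controls 1, 2 and 3, against 39.8, 38.6 and 51.7 CPM in mutants 1, 2 and 3. The highest control lay above the 2 lower mutants. Of the 8, 7 had a positive fold change, the median was 0.29 (0.18 without mutant replicate 3) and none was called. Mcm4 was measured at 5.02, 5.46 and 6.15 CPM in controls, against 6.37, 7.39 and 7.05 CPM in mutants. The groups did not overlap, with a log2 fold change of 0.32 ± 0.17 (SE), adjusted p = 0.786. The value was 0.31 without mutant replicate 3. Mcm7 read 9.12, 9.20 and 10.1 CPM in the controls, against 10.6, 10.4 and 12.7 CPM in the mutants, again without overlap (log2 fold change 0.25 ± 0.15 (SE), adjusted p = 0.814; 0.15 without mutant replicate 3). Mcm3 had 3.80, 2.51 and 5.11 CPM in control muscle and 6.00, 4.55 and 7.25 CPM in mutant muscle, and the lowest mutant lay under the highest control. The log2 fold change of Mcm3 was 0.64 ± 0.31 (SE), with an adjusted p of 0.770, and it was 0.47 without mutant replicate 3 and 0.41 without control replicate 2. Among the other 5, Cdc6 and Cdt1, the loading factors, lay between 0.34 and 1.5 CPM, Mcm5 between 0.544 and 4.89 CPM, Mcm6 between 3.45 and 8.75 CPM and Mcm2 between 5.87 and 10.5 CPM.

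The 5 genes of DNA synthesis and nucleotide supply summed to 66.1, 66.0 and 57.5 CPM in controls 1, 2 and 3, against 71.6, 68.2 and 65.6 CPM in mutants 1, 2 and 3, and the groups overlapped. The median log2 fold change of the 5 was 0.12 (0.07 without mutant replicate 3). Pcna, the sliding clamp of the polymerases, read 8.67, 10.3 and 12.6 CPM in the controls, against 13.4, 12.8 and 12.3 CPM in the mutants. The lowest mutant lay just under the highest control (log2 fold change 0.29 ± 0.17 (SE), adjusted p = 0.814), and the value was 0.32 without mutant replicate 3. Rrm1, the large subunit of ribonucleotide reductase, had 47.6, 39.5 and 33.9 CPM in control muscle and 46.9, 45.8 and 38.9 CPM in mutant muscle. Its log2 fold change was 0.12 ± 0.16 (SE), and the groups overlapped. Tyms, thymidylate synthase, was measured at 0.774, 0.725 and 1.04 CPM in controls, against 0.978, 0.634 and 2.26 CPM in mutants. Mutant replicate 3 was 2.17 times the next library, and without it the log2 fold change moved from 0.61 ± 0.49 (SE) to -0.07. Rrm2, the S phase subunit of ribonucleotide reductase, was highest in control replicate 2 at 8.34 CPM and next in mutant replicate 3 at 4.05 CPM, beside 0.827 to 1.82 CPM elsewhere. For Rrm2 the log2 fold change was -0.68 ± 0.91 (SE), and it was 0.88 ± 0.66 (SE) without control replicate 2 and -1.44 ± 1.03 (SE) without mutant replicate 3. Tk1, thymidine kinase, lay between 7.07 and 8.67 CPM, and its count is taken up below with the strand of the reads.

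Most genes of mitosis were at low counts in 5 animals and higher in 1. Summed over 23 mitotic genes, the level was 21.7, 15.1 and 31.9 CPM in the controls and 24.3, 22.3 and 64.8 CPM in the mutants. Aurka (4.08 to 10.9 CPM) and Tpx2 (1.45 to 5.94 CPM), both highest in a control, gave much of this sum outside mutant replicate 3. With them included, mutant replicate 3 was 2.03 times the next library, control replicate 3. The other 2 mutants lay within the range of the controls. For the summed replication genes mutant replicate 3 was 1.05 times the next library. Of the 18 mitotic genes tested, 17 had a positive fold change, the median log2 fold change was 1.12 and none was called. Without mutant replicate 3, 9 of the same 18 had a positive fold change and 9 a negative one, and the median was 0.

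Among the cyclins and kinases of S and M phase, 3 of 7 (Ccnb1, Ccnb2 and Plk1) were left out of the test for low counts. The median log2 fold change of the other 4 was 1.45, and 0.04 without mutant replicate 3. Cdk1 had 1, 6 and 12 read pairs in the controls and 14, 6 and 74 in the mutants, which is 0.025, 0.136 and 0.305 CPM and 0.37, 0.165 and 1.88 CPM. Mutant replicate 3 was 5.09 times the next library, mutant 1 lay just above the highest control and mutant 2 within the control range. The log2 fold change was 2.37 ± 1.06 (SE, adjusted p = 0.749), and 0.78 ± 0.87 (SE) without mutant replicate 3. Ccnb1, the cyclin partner of CDK1 in mitosis, had 1, 3 and 7 read pairs in the controls and 7, 4 and 38 in the mutants. Plk1, the polo kinase, had 3, 6 and 3 read pairs in the controls and 8, 0 and 30 in the mutants, where a count of 0 allows up to 0.0827 CPM by counting error alone. For Ccnb1 the level in mutant replicate 3 was 5.23 times that in mutant replicate 1, the next library, and for Plk1 it was 3.61 times. Ccnb2, a second mitotic B-type cyclin, had 1, 7 and 8 read pairs in the controls and 12, 2 and 35 in the mutants. Ccna2, the cyclin of S phase and early mitosis, read 0.225, 0.249 and 0.686 CPM in the controls, against 0.449, 0.138 and 2.42 CPM in the mutants. The lowest of all 6 was a mutant, and the log2 fold change of 1.38 ± 1.00 (SE) turned to -0.38 without mutant replicate 3. Aurkb, the kinase that corrects faulty spindle attachment, had 0.025, 0.0906 and 0.585 CPM in control muscle and 0.423, 0.0827 and 1.5 CPM in mutant muscle (log2 fold change 1.53 ± 1.2 (SE), adjusted p = 0.866). Without mutant replicate 3 the value for Aurkb was 0.14, and without control replicate 3 it was 3.43 (unadjusted p = 0.0412, adjusted p = 0.739). Aurka, a spindle pole kinase, was the exception of this group: it was highest in control replicate 3, at 10.9 CPM, and mutant replicate 3 had 5.12 CPM.

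The pattern was steepest in the 8 genes of chromosomes, kinetochore and checkpoint. They summed to 2.77, 2.67 and 7.60 CPM in controls 1, 2 and 3, against 7.22, 3.75 and 30.7 CPM in mutants 1, 2 and 3. Mutant replicate 3 held the highest level of all 8, and its sum was 4.04 times that of the next library, control replicate 3. Of the 8, 6 were tested, all with a positive fold change (median log2 2.01), and none was called. Without mutant replicate 3, 5 of these 6 had a positive fold change and the median was 0.44. Mki67 read 0.225, 0.634 and 1.93 CPM in the controls, against 1.90, 0.551 and 9.98 CPM in the mutants. Apart from mutant replicate 3, the 2 groups lay over each other (log2 fold change 2.16 ± 1.16 (SE), adjusted p = 0.799; 0.40 ± 0.92 (SE) without that library). Top2a had 0.35, 0.476 and 2.49 CPM in control muscle and 1.27, 0.524 and 9.19 CPM in mutant muscle. Control replicate 3 was its second library, and the log2 fold change of 1.73 ± 1.21 (SE) turned to -0.29 without mutant replicate 3. Cenpf, a large kinetochore protein made in G2, was measured at 0.0499, 0.113 and 0.534 CPM in controls, against 0.37, 0.276 and 2.98 CPM in mutants. Its 5.58-fold gap between mutant replicate 3 and the next library was the widest of the 45 genes (log2 fold change 2.38 ± 1.17 (SE), adjusted p = 0.777; 0.48 without that library).

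Bub1b and Cenpe were the members of this group whose groups did not overlap. Bub1b, which encodes the checkpoint kinase BUBR1, read 0.0999, 0.181 and 0.559 CPM in the controls, against 0.899, 0.799 and 1.91 CPM in the mutants. All 3 mutants lay above all 3 controls, with a mutant mean of 1.2 ± 0.614 (SD, n = 3) beside a control mean of 0.28 ± 0.245 (SD, n = 3) CPM. Its log2 fold change was 2.10 ± 0.66 (SE), with an unadjusted edgeR p of 0.0148 and an adjusted p of 0.573. Without mutant replicate 3 the value was still 1.60 ± 0.68 (SE), with an unadjusted p of 0.0541. In the authors' deposited table Bub1b has a log2 fold change of 2.10 and an adjusted p of 0.115, the lowest adjusted p of the 45 there. Cenpe, a kinetochore motor that moves chromosomes to the spindle equator, had 0.175, 0.159 and 0.229 CPM in control muscle and 0.344, 0.276 and 1.53 CPM in mutant muscle. Behind the CPM of the lowest mutant and the highest control lie 10 and 9 read pairs, and a gap of that size was not detectable at this depth. Every control was under the filter minimum of 10 read pairs, so Cenpe was tested only through the mutants. Its log2 fold change was 1.92 ± 0.73 (SE, adjusted p = 0.677), and 0.72 ± 0.46 (SE) without that library. Cenpa, the centromeric histone, lay between 0.952 and 3.26 CPM. Bub1 and Birc5, a checkpoint kinase and the survivin of the chromosomal passenger complex, were not tested, and had 31 and 43 read pairs in mutant replicate 3 beside 0 to 7 and 3 to 12 elsewhere.

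**Figure D3:**
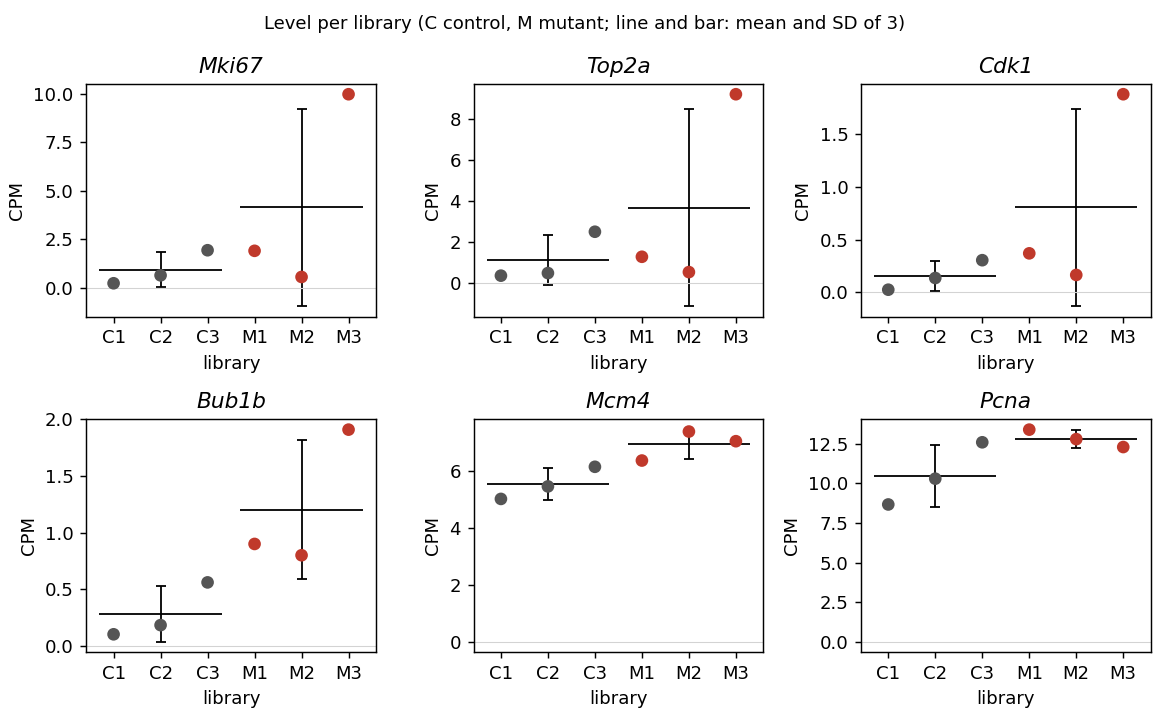
Level in CPM of Mki67, Top2a, Cdk1, Bub1b, Mcm4 and Pcna in the 3 control (C1 to C3, grey) and 3 mutant (M1 to M3, red) libraries; horizontal lines and bars are the mean and SD of 3 libraries. M3 stands alone at 9.98, 9.19 and 1.88 CPM in the panels of Mki67, Top2a and Cdk1, while all 3 red points lie above the grey points for Bub1b and Mcm4.

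The 6 genes of spindle and cytokinesis summed to 8.97, 5.23 and 9.20 CPM in controls 1, 2 and 3, against 6.79, 8.30 and 16.5 CPM in mutants 1, 2 and 3. Mutant replicate 3 was the highest library for 5 of the 6, all 6 had a positive fold change (median log2 0.50) and none was called. Without that library 2 of the 6 did, and the median was -0.17. Kif11 read 0.375, 0.68 and 1.60 CPM in the controls, against 0.978, 0.661 and 4.22 CPM in the mutants. The log2 fold change of 1.15 ± 0.82 (SE) moved to -0.11 without mutant replicate 3. Kif23, a motor of the central spindle, had 0.325, 0.295 and 0.458 CPM in control muscle and 0.502, 0.248 and 1.55 CPM in mutant muscle (log2 fold change 1.10 ± 0.66 (SE); 0.07 without mutant replicate 3). Ect2, which places the cleavage furrow, was measured at 0.25, 0.159 and 0.763 CPM in controls, against 0.317, 0.138 and 1.45 CPM in mutants. Mutant 2 was the lowest of all 6 and mutant 1 lay within the control range, and the log2 fold change of 0.72 ± 0.93 (SE) turned to -0.76 without mutant replicate 3. Tpx2, which activates Aurora A on the spindle, was highest in control replicate 1 (5.94 CPM) and lowest in control replicate 2 (1.45 CPM). Cdc20 and Ube2c serve the anaphase-promoting complex, the ubiquitin ligase that ends mitosis. Cdc20 read 0.30, 0.34 and 0.432 CPM in the controls, against 0.449, 0.165 and 1.58 CPM in the mutants. Its log2 fold change of 1.03 ± 0.75 (SE) turned to -0.21 without mutant replicate 3. Ube2c had 1.47, 1.93 and 1.75 CPM in control muscle and 1.85, 1.16 and 2.49 CPM in mutant muscle (log2 fold change 0.09 ± 0.33 (SE)), with a reservation on its counts given below.

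**Figure D4:**
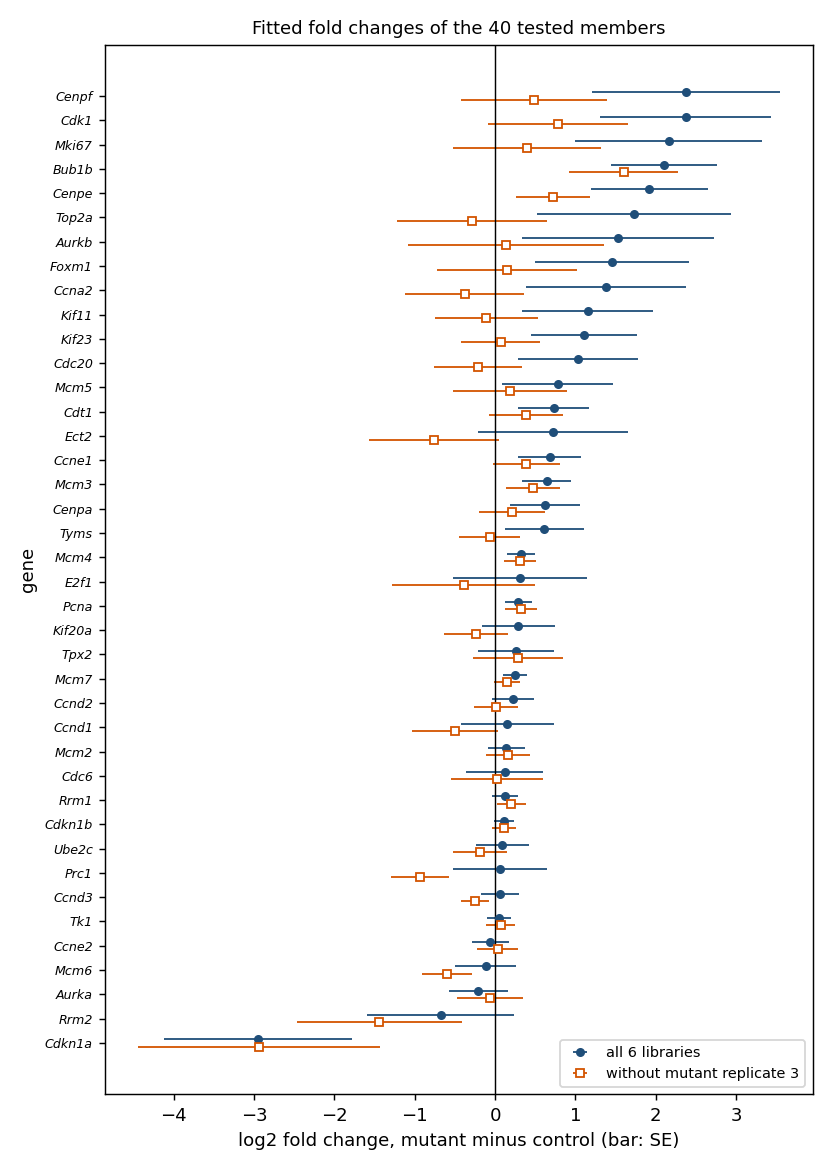
Fitted log2 fold change, mutant minus control, of the 40 tested genes with its standard error, with all 6 libraries (filled circles) and without mutant replicate 3 (open squares). Most mitotic genes, such as Mki67 (2.16 and 0.40) and Top2a (1.73 and -0.29), move towards or past 0, while Mcm4 (0.32 and 0.31) and Cdkn1a (-2.95 and -2.94) stay in place.

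Sex moves with the library that stood apart, because mutant replicate 3 was the 1 male mutant. Among males alone, with 3 controls and 1 mutant, all 45 genes could be fitted: 0 were called, 17 had an unadjusted p under 0.05, where 3.5% of all genes had one, and the median log2 fold change was 1.14. With sex as a covariate over all 6 libraries, 0 of 40 were called, 15 had an unadjusted p under 0.05, where 5.66% of all genes had one, and the median was 1.02. In these 2 fits the mutant effect rests on mutant replicate 3 alone, so it cannot be told apart from that animal and its library. Sex is constant in the males-only fit. Among the 3 mutants, sex cannot be told apart from animal and library.

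Markers of cell types that divide in muscle, and of some other cell types, were read in the same libraries. All 5 endothelial markers were highest in mutant replicate 3; their sum was 225 to 244 CPM in the controls and 274, 253 and 351 CPM in mutants 1, 2 and 3. Of 10 macrophage markers, 1 (Mrc1) was highest there, and their sum was 103 to 165 CPM in the controls and 123 to 209 CPM in the mutants, with mutant replicate 3 at 164 CPM. Of 9 satellite cell and myoblast markers, 3 were highest there (Calcr, Vcam1 and Myh8). Calcr, a receptor of quiescent satellite cells, was 2.01 CPM there beside 0.25 to 0.814 CPM elsewhere. Pax7 was highest in control replicate 3 (4.7 CPM, with 3.94 CPM in mutant replicate 3). Myf5, Myod1, Myog, Mymk and Myh3 were highest in control replicate 2. Myod1 was lowest in mutant replicate 3, at 11.3 CPM beside 19.7 to 51.6 CPM elsewhere. The sum of those 9 was 56.7 to 175 CPM in the controls and 62.6 to 86.3 CPM in the mutants. Of 6 fibroblast markers, 4 were highest in mutant replicate 3, but Dcn (458 CPM) and Pdgfra (38 CPM) were nearly level with control replicate 3. That library had 458 and 37.4 CPM. The sum of the 6 was 775 to 3360 CPM in the controls and 689 to 4240 CPM in the mutants. Col1a1 was 2130 CPM in mutant replicate 3, 1420 CPM in control replicate 3 and 69.1 to 226 CPM elsewhere, and the same 2 libraries led for Col3a1. The other 4 fibroblast markers summed to 521 to 577 CPM in the controls and to 422 to 603 CPM in the mutants. Of the 33 cell cycle genes that were highest in mutant replicate 3, control replicate 3 was the second library for 17 and mutant replicate 1 for 14; among the 21 mitotic ones these counts were 9 and 10. Schwann cell markers summed to 62.5 to 269 CPM in the controls and to 84.1 to 364 CPM in the mutants, with 1 of 4 highest in mutant replicate 3. T cell markers summed to at most 1.72 CPM and B cell markers to at most 3.09 CPM in any library, with 1 of 6 and 0 of 4 highest in mutant replicate 3. Neutrophil markers summed to 7.91 to 25.3 CPM in the controls and to 2.65 to 8.35 CPM in the mutants, with 1 of 6 highest there, and Elane and Mpo, of their precursors, had 0 to 3 read pairs. Adipocyte markers summed to 16.7 to 51.6 CPM in the controls and 25.8 to 83.3 CPM in the mutants, and red blood cell markers to 772 to 2070 CPM and 1370 to 2030 CPM. The part of these cells in the mitotic gene levels was not tested.

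The deposited counts ignored strand although the libraries were directional, and this bears on a few of the genes. For 36 of the 45 genes the strand-matched count of the same reads lay within 80% to 120% of the deposited count; 2 genes were under and 7 above. Ube2c lies opposite Tnnc2, which encodes the troponin C of fast fibres. It had 423 read pairs in the deposited counts and 9317 on its own strand, beside 2292360 on the opposite strand. Reads of Tnnc2 cannot be told apart from its own in either count, and its level is uncertain. Prc1, which bundles the microtubules of the central spindle, had 368 deposited read pairs and 209 on its own strand, and Rccd1 lies opposite. On deposited counts it was measured at 1.17, 1.93 and 1.40 CPM in controls, against 0.74, 0.827 and 3.13 CPM in mutants, which is a log2 fold change of 0.06 ± 0.58 (SE). With strand-matched counts it read 0.211, 0.489 and 0.429 CPM in the controls, against 0.52, 0.285 and 3.03 CPM in the mutants, and the log2 fold change was 1.76 ± 0.90 (SE, adjusted p = 0.782). On strand-matched counts Prc1 was thus high in mutant replicate 3 alone. Mutants 1 and 2 lay below all controls on deposited counts and did not on strand-matched ones. For Kif20a, a cytokinesis motor opposite Cdc23, the strand-matched level was 2.53 CPM in mutant replicate 3 and 0.587 to 1.26 CPM elsewhere. Ccna2, opposite Exosc9, had 145% of its deposited count and was still highest in mutant replicate 3. Ccnd1 had 3469 read pairs on its own strand beside 2019 deposited. Pcna had 168% of its deposited count, and it then had 15.1, 15.9 and 19.4 CPM in control muscle and 20.8, 19.3 and 20.0 CPM in mutant muscle (log2 fold change 0.25 ± 0.14 (SE)). Tk1, opposite Afmid, had 752 read pairs on its own strand of 1908 deposited, which is 2.75, 2.42 and 2.98 CPM in the controls and 3.42, 3.26 and 3.15 CPM in the mutants. The groups overlapped on deposited counts and did not on strand-matched ones, where the log2 fold change was 0.27 ± 0.20 (SE, adjusted p = 0.856). With strand-matched counts mutant replicate 3 was the highest library for 32 of the 45 genes and 20 of the 23 mitotic ones (not Aurka, Tpx2 and Ube2c), and 0 of the 40 tested were called. Near-identical copies could also share reads: a Pcna pseudogene reached 2.10 CPM and a Ccnb2 pseudogene 1.19 CPM in some library, so the levels of Pcna and Ccnb2 carry that uncertainty.

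**Figure D5:**
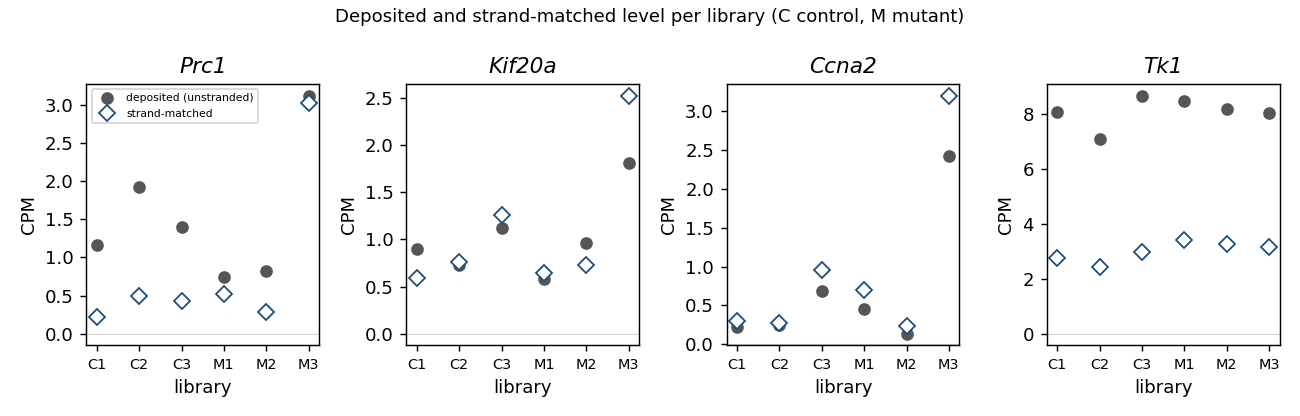
Level in CPM of Prc1, Kif20a, Ccna2 and Tk1 in each library from the deposited, unstranded counts (filled circles) and from strand-matched counts (open diamonds). In Prc1 the diamonds of the other 5 libraries lie under 0.6 CPM and M3 keeps 3.03 CPM, and in Tk1 all diamonds lie between 2.42 and 3.42 CPM, below the circles.

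Divided by exon length, so that genes can be set side by side, the levels spanned a wide range. In controls the highest were Cdkn1a, through control replicate 2, at 34.2 ± 49.9 (SD, n = 3) CPM per kilobase, Cdkn1b at 10.1 ± 1.01, Pcna at 4.38 ± 0.815 and Rrm1 at 3.66 ± 0.624. These levels use the deposited counts, on which the neighbours Pcna and Rrm1 in this order did not differ beyond their spread. Strand-matched reads gave Pcna 168% of its deposited count, while Rrm1 stayed within 80% to 120%, so deposited counts understate Pcna against Rrm1. Levels per kilobase were not computed from strand-matched counts. The places of Ccnd1, Tk1 and Ube2c, also outside 80% to 120%, hold for deposited counts only. The lowest mean was that of Cenpf at 0.0151 ± 0.017 CPM per kilobase, and its neighbours Bub1 (0.0206 ± 0.0204), Ccnb1 (0.0214 ± 0.0187) and Cenpe (0.0217 ± 0.00427) did not differ from it beyond the spread. By this measure Mki67 was 32nd of the 45 in the mean of the controls and 19th in mutant replicate 3, and Top2a was 28th and 18th, while Cdc6 was 30th and 45th.

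A wider set of 127 genes of the cycle, listed by function, was read in the same way. Of these, 126 were found, 103 were tested and 0 were called by edgeR, where 0.199% of all tested genes were called. At an unadjusted edgeR p under 0.05, 9 were higher, where 3.25% of all tested genes were, and 1 was lower, where 3.69% were. Every mutant lay above every control for 12 of the 103, where 5.97% of all tested genes did so. Every mutant lay below every control for 1 of them (6.09% of all tested genes). A positive fold change was fitted for 80 of the 103, with a median log2 of 0.31, where 49.8% of all tested genes had one. Without mutant replicate 3 it was fitted for 64 of them, with a median of 0.10. Mutant replicate 3 was the highest library for 40 of 44 further mitotic genes, 22 of 39 replication genes, 9 of 30 RB, E2F and G1 regulators and 0 of 13 genes of p53 and its targets. It was the highest for 19.1% of all tested genes. Median log2 fold changes in these 4 lists were 0.73, 0.37, 0.08 and -0.09, and 0.15, 0.14, 0.10 and -0.16 without mutant replicate 3. The p53 list had a median of 0.07 without control replicate 2. Wee1, the kinase that holds CDK1 inactive, had the lowest p of the set. It was measured at 5.14, 6.09 and 5.85 CPM in controls, against 8.54, 9.34 and 13.4 CPM in mutants. All mutants lay above all controls (log2 fold change 0.87 ± 0.21 (SE), edgeR adjusted p = 0.428), and DESeq2 gave an adjusted p of 0.0442. Without mutant replicate 3 the edgeR value for Wee1 was 0.65 ± 0.18 (SE), adjusted p = 0.489. Of the stranded reads of Wee1, 22.2% lay on the opposite strand. Spc24, a subunit of the NDC80 kinetochore complex, read 1.22, 1.45 and 1.02 CPM in the controls, against 3.25, 2.78 and 1.86 CPM in the mutants. Here mutant replicate 3 was the lowest mutant, unlike in most mitotic genes (log2 fold change 1.09 ± 0.30 (SE), adjusted p = 0.512).

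The other genes with the smallest p in each list are given next. Picking genes by p favours those whose groups do not overlap. Nek2, a centrosome kinase, had 0.35, 0.249 and 0.203 CPM in control muscle and 0.555, 0.524 and 0.814 CPM in mutant muscle (log2 fold change 1.23 ± 0.38 (SE), adjusted p = 0.572). Cdca3, a trigger of mitotic entry, was measured at 0.474, 0.816 and 0.458 CPM in controls, against 0.872, 1.13 and 1.96 CPM in mutants (1.17 ± 0.42 (SE), adjusted p = 0.655). Neither overlapped between groups, and both were highest in mutant replicate 3, without which Nek2 was 1.00 and Cdca3 0.77 on the log2 scale. Of the replication list, Pole, the leading strand polymerase, read 2.15, 1.65 and 1.14 CPM in the controls, against 2.91, 2.81 and 2.75 CPM in the mutants (0.77 ± 0.28 (SE), adjusted p = 0.661). The 3 mutants were close to each other, as they were for Cdc45, a helicase cofactor, at 2.75 to 2.84 CPM beside 1.74 to 2.25 CPM in the controls (0.48 ± 0.22 (SE)). Dut, which clears dUTP, overlapped at 3.94 to 6.89 CPM in the controls and 6.01 to 8.60 CPM in the mutants. Of the regulators, Lin9, a core subunit of the complex that binds the CHR, had 3.52, 4.28 and 5.14 CPM in control muscle and 6.32, 6.12 and 6.90 CPM in mutant muscle (0.58 ± 0.20 (SE), adjusted p = 0.654). Btg2, an antiproliferative gene, lay at 20.8 to 26.0 CPM in the controls and 23.5 to 37.7 CPM in the mutants. On the p53 list, Eda2r had the lowest p (log2 fold change -2.15 ± 0.88 (SE), adjusted p = 0.714), with Plk2 and Bbc3 next, and all 3 were highest in control replicate 2. Without that library Eda2r was -0.75 ± 0.57 (SE).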

How the data were processed

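RNA-seq libraries of 6 gastrocnemius muscles were analysed. Per the submitters' processing notes, the authors used FastQC 0.12.1, MultiQC 1.28, STAR 2.7.11b on GRCm39, R 4.5.2 and DESeq2 1.50.2; none of these sources names the annotation release. They deposited raw read-pair counts per gene, unstranded in the matrix (equal to the unstranded column of the per-library files in all 57010 genes) and per strand in the per-library files. The pairs assigned to no gene (18.5% to 22.3%) were left out. Per its file header, the authors' deposited DESeq2 table holds a mean signal of normalized counts, a log2 fold change with its error, a Wald score and p-values, raw and adjusted; no header or label states its model. Symbols were matched for 52029 gene IDs.

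From the counts, edgeR 4.0.16 (R 4.3.3, limma 3.58.1) was run on all 6 libraries with TMM scaling, a filter on low counts (filterByExpr, minimum 10), robust dispersions and group as the only term. A standard error is the log2 fold change divided by the square root of F. Fitted fold changes use a prior count of 0.125. The steps were tested on simulated data. CPM values cover every gene, tested or not. Alternatives were RLE and upper-quartile scaling, limma-voom, DESeq2 1.42.0, no filter and a 1 CPM filter, sex as a covariate, a replicate block, males only, strand-matched counts and each library left out; DESeq2 with sex and DESeq2 without mutant replicate 3 were added after seeing the data. Intervals and floors cover counting error only. Every 2 libraries differed by more than sampling noise (smallest chi-square per degree of freedom 32.9).

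The 45 genes, the further lists and the markers were chosen with earlier results of these data known. Values per library are given for genes at an unadjusted p under 0.05, for up to 3 of each role list with the smallest p, and for Mki67, Top2a, Cdk1, Cdkn1a and Pcna; of each further list, up to 3 with the smallest p. Values per library for Ccnb1, Ccnb2, Plk1, Prc1, Gadd45a, Rb1 and Myog, and the remarks on single other genes, were chosen after their values were seen. Lin54 was not analysed here. Promoters and exon lengths came from tables on GRCm38, used without converting coordinates.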

Additional observations from a re-analysis of the deposited data

How the results depend on the processing

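No cell cycle gene of the 45 was called under any setting but 1: DESeq2 with sex as a covariate called 1, Cenpe (log2 fold change 3.01, adjusted p = 0.0456). With sex as a term the mutant effect rests on mutant replicate 3 alone. Cenpe was 1.53 CPM in that library, beside 0.344 and 0.276 CPM in mutants 1 and 2. Of the further 103 genes, DESeq2 called 1 (Wee1), DESeq2 with sex 1 (Wee1) and DESeq2 without mutant replicate 3 1 (Spc24). Over all genes the 31 calls became 184 with DESeq2, 79 with no filter on low counts, 0 with sex as a covariate (882 at an unadjusted p under 0.05), 0 in males only (594), 87 with DESeq2 and sex, 290 with DESeq2 without mutant replicate 3, and 6 to 49 with 1 library left out (7 without mutant replicate 1, 6 without mutant replicate 2, 49 without control replicate 2). With the replicate block they became 11, and 0 of the 45 genes were called; same-numbered libraries did not deviate together throughout (r = 0.227, -0.0572 and 0.22), so the numbers were not taken as pairs. The log2 ratio of summed CPM, mutant to control, was -0.34 over all 45 genes, -0.57 to 0.14 with 1 library left out (0.14 without control replicate 2). Over the 38 outside the G1 list it was 0.29, 0.60 in males only and 0.11 to 0.39 with 1 library left out. Of 420 values of 24 named genes under alternatives, 398 kept their direction and 22 did not. With 1 library left out, log2 fold changes ran from -0.29 to 3.13 for Top2a, -0.39 to 1.57 for E2f1, -0.07 to 0.93 for Tyms, -0.38 to 2.06 for Ccna2, -0.11 to 1.87 for Kif11, -0.76 to 1.63 for Ect2, -0.21 to 1.5 for Cdc20 and -0.19 to 0.34 for Ube2c. The negative ends of these ranges are the values without mutant replicate 3, and DESeq2 without that library gave -0.30, -0.39, -0.07, -0.39, -0.11, -0.77, -0.21 and -0.19 for the same 8 genes in that order. Without control replicate 1, E2f1 was -0.17 and Ube2c -0.01; with strand-matched counts Ube2c was -0.06. Rrm1 was -0.05 with sex as a covariate, -0.05 in males only and -0.07 in DESeq2 with sex. The cause was not tested, beyond the fewer libraries that each left-out fit holds. Depth limits the mitotic genes most: 5 of the 45 had too few read pairs to test.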

Other observations

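Pttg1, which encodes securin, the inhibitor of separase, was set apart by 1 control. It stood at 47.2, 26.9 and 1.19 CPM in controls 1, 2 and 3 and at 49.2, 41.0 and 35.9 CPM in mutants 1, 2 and 3. Control replicate 3 had 47 read pairs, beside 1186 to 1890 in the other 5 libraries. The gene was chosen after its values were seen, and the groups overlapped (log2 fold change 0.74 ± 0.99 (SE), edgeR adjusted p = 0.936).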
